A study of Caenorhabditis elegans with 40 samples.

Results

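The cytosolic ribosomal protein genes of Caenorhabditis elegans were followed across wild-type and npr-8(ok1439) adults of 2 ages grown at 2 temperatures. Members were the 75 genes of the tables whose names consist of rpl- or rps- and a number, together with rla-0, rla-1, rla-2, ubl-1 and ubq-2, which gave 80 of 41560 genes, by a rule that uses names only. By name, 45 code for proteins of the large subunit, 32 for proteins of the small subunit and 3 for the ribosomal stalk. The 8 groups of 5 libraries each were old npr-8(ok1439) at 25°C, old wild type at 25°C, old npr-8(ok1439) at 20°C, old wild type at 20°C, young npr-8(ok1439) at 25°C, young wild type at 25°C, young npr-8(ok1439) at 20°C and young wild type at 20°C. Old animals were 9-day-old adults, and young animals were adults that the sample labels call 0-day-old and the paper calls 1-day-old. The methods describe daily washing and straining of the adults kept to day 9, and this handling cannot be told apart from age here. All were whole animals fed Escherichia coli OP50 and kept at their temperature for generations before sampling, and wild type is the N2 strain. The allele ok1439 is a deletion in npr-8, which codes for a receptor related to neuropeptide Y receptors; every tissue carries it, and all its data rest on 1 strain.

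Ribosomal proteins form the protein part of both ribosomal subunits, and a cell that grows makes them in nearly equal amounts, so their messenger RNAs rank among the most abundant of an animal. Most are coded by single genes in C. elegans, whereas a few have a second copy elsewhere in the genome. Their synthesis responds to nutrition and to TOR kinase signalling, and reducing translation is known to lengthen life in this species. In the hermaphrodite germ line most genes of the X chromosome are silent.

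Libraries held between 18690583 and 36883662 fragments (median 26451139), so that all members except rpl-42 were measured from many fragments and the spread between libraries, not counting, set the error. Nothing in the labels states whether the 5 libraries of a group came from separate cultures, and p-values therefore measure only the spread between these libraries. Fragments on npr-8 do not separate the genotypes, at 53 to 93 per library in the npr-8(ok1439) groups where the gene could be matched (not in old animals at 20°C) and 33 to 76 in wild type; they are counted over the whole gene and not over the deleted part, so they do not check the labels. As whole animals should, the libraries held markers of the germ line, intestine, muscle, hypodermis and neurons, and of the 96 markers in the tables only ssp-9 had no fragment anywhere. In whole animals, fewer cells of a type and less RNA per cell cannot be told apart. In 1 library of young npr-8(ok1439) at 25°C the members departed unevenly from the median of their group, with an SD over 79 members of 0.537 on the log2 scale. There rpl-3, which lines the peptidyl transferase centre, was 1.54 below the group median (departure -1.54), and rpl-22 was 0.95 above it. In 1 library of old npr-8(ok1439) at 25°C this SD was 0.277, and in the other 38 libraries it lay between 0.044 and 0.204. Counts of members that passed are given with and without those 2 libraries in the comparisons that use them.

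In young animals at 20°C, 69 of the 80 members were among the 100 genes with the highest FPKM (fragments scaled by transcript length and library size, which allows levels of different genes to be compared) in wild type, and the median member had 3635 FPKM. The highest level by this measure was that of rpl-39, a very short protein of the large subunit, at 18634 ± 949 FPKM in npr-8(ok1439) and 15735 ± 3053 in wild type (SD, n = 5 each). In wild type rpl-39 had 7750 to 9100 fragments per library and rpl-3 145428 to 164199, so this first place rests on the scaling by length. Among the members in wild type rpl-39 was followed by rps-8, rpl-29, rpl-38 and rpl-37 with 8271, 7959, 7784 and 7502 FPKM, and each of these differed from the next by less than the larger SD of the pair. At the low end stood rpl-28 with 1421 FPKM, ubl-1, a ubiquitin-like protein fused to a small-subunit protein, with 1035, and rpl-25.1 with 870. Only 2 members lay below 500 FPKM in wild type. These were rpl-24.2 with 257 ± 14 FPKM in npr-8(ok1439) and 325 ± 15 in wild type, and rpl-42 with 24 ± 2 in npr-8(ok1439) and 25 ± 6 in wild type, at rank 6839 of all genes.

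The share of a library that fell on the 80 members was smaller in old than in young animals in each of the 3 pairs of groups where all members were measured. In npr-8(ok1439) at 25°C the members took 7.07, 7.01, 6.53, 6.81 and 6.62% of the fragments in old animals, and 10.7, 8.35, 9.06, 9.49 and 8.92% in young animals. In wild type at 25°C the shares were 6.3, 7.1, 6.6, 6.27 and 6.18% in old animals, and 8.79, 8.98, 8.54, 9.09 and 8.63% in young animals. In wild type at 20°C the shares were 7.12, 7.41, 7.89, 7.43 and 7.22% in old animals, and 10.7, 11.23, 10.54, 11.02 and 11.26% in young animals. No old library reached the lowest young library of its genotype and temperature. Young npr-8(ok1439) at 20°C gave 10.4 ± 0.366%, and young wild type 10.9 ± 0.330% (SD, n = 5 each), and these ranges overlap. For old npr-8(ok1439) at 20°C, whose fragments were given by transcript, 71 members could be matched; they took 6.99 ± 0.170% there and 6.39 ± 0.256% in old wild type at 20°C.

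**Figure D1:**
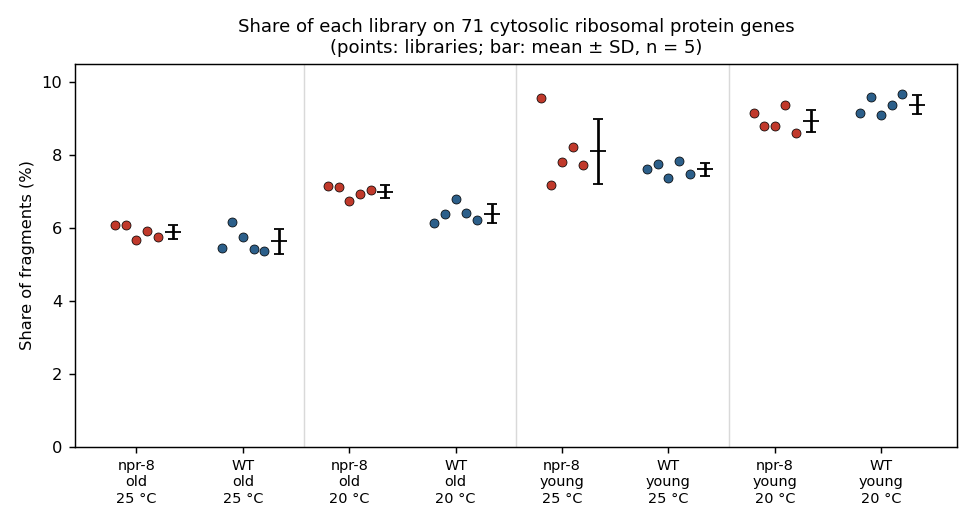
Share of each library's fragments (%, y axis) on the 71 members measured in all 8 groups (x axis), with points for libraries and bars for mean ± SD (n = 5). Old libraries lie between 5.36 and 7.16% and young libraries between 7.18 and 9.68%; the highest point of young npr-8(ok1439) at 25°C, at 9.57%, is the library in which the members departed unevenly.

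Age lowered nearly the whole family by a similar amount. In the edgeR fit over all genes, a member is said to pass at an adjusted p under 0.05 (Benjamini-Hochberg over all genes tested), and to change by at least 2-fold when its log2 fold change is also 1 or more in size. Old wild type at 20°C had 76 of 79 members below young wild type at an adjusted p under 0.05 and 0 above it, against 48.4% of all 15329 genes below and 42.4% above. The median log2 fold change of the members was -0.58, and that of all genes -0.16. At 25°C, 77 of 78 members passed below young wild type and 0 above, against 39.5 and 37.3% of all 13849 genes; the median was -0.66 for members and -0.01 for all genes. In npr-8(ok1439) at 25°C, 75 of 79 members passed below the young animals and 1 above, against 39.4 and 35.1% of all 14736 genes, with medians of -0.66 for members and -0.04 for all genes. Without the uneven young library, 78 members passed below in that comparison, and without the uneven old library 74 did.

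The family was narrow as well as low. The interquartile range of the members was 0.20 on the log2 scale in wild type at 20°C, where that of all genes was 3.004, and 0.16 against 0.92 at 25°C and 0.22 against 1.48 in npr-8(ok1439) at 25°C. All genes include many of far lower level than the members, and other genes of like level were not compared. Both subunits moved alike, with medians of -0.58 for the large subunit and -0.58 for the small subunit in wild type at 20°C, -0.64 and -0.67 at 25°C, and -0.66 and -0.68 in npr-8(ok1439). A member that fell with age is rps-4, a protein of the small subunit. It had 1270, 1376, 1350, 1332 and 1336 CPM (counts scaled to library size with TMM factors over all 40 libraries) in old wild type at 25°C, against 1904, 1886, 1857, 1952 and 1990 CPM in young wild type at 25°C, and every old library lay below every young one. Its log2 fold change was -0.52 ± 0.04 (SE), a smaller fall than the median of the members there, at -0.66. The stalk proteins rla-0, rla-1 and rla-2, which recruit elongation factors to the ribosome, changed by -0.44 ± 0.06, -0.67 ± 0.09 and -0.47 ± 0.09 in wild type at 20°C, and all 3 passed. The fusion genes behaved likewise, with ubl-1 at -0.45 ± 0.06 and ubq-2, which joins ubiquitin to a protein of the large subunit, at -0.69 ± 0.06. Because most genes of these libraries changed with age, the size of the family's shift depends on the scaling: its median in wild type at 20°C was -0.44 with DESeq2's size factors and -0.57 with library size alone, and in wild type at 25°C -0.63 and -0.44. It is close to 0 by construction when the members' own sum is used as library size.

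Few members changed at least 2-fold with age. In old wild type at 20°C these were rpl-42, rpl-11.2 and rpl-25.1, all lower (3 of 79 members, against 36.7% of all genes lower and 26.7% higher by this rule). In old wild type at 25°C it was rpl-11.2 alone (1 of 78, against 15.4% lower and 9.07% higher), at -1.01 ± 0.05, where rpl-42 had too few fragments to be tested; with single libraries of either age left out this count lay between 0 and 3, and with DESeq2's size factors in the edgeR fit it was 0. In old npr-8(ok1439) at 25°C they were again rpl-42, rpl-25.1 and rpl-11.2 (3 of 79, against 23.4% lower and 10.4% higher), and 4 members were lower without the uneven young or without the uneven old library. Next in size in wild type at 20°C came rps-26, rpl-37 and rpl-33 at -0.89 ± 0.10, -0.87 ± 0.12 and -0.85 ± 0.11. At 25°C the members next to rpl-11.2 were rpl-22, rps-22, rpl-27 and rps-13 at -0.99 ± 0.18, -0.93 ± 0.06, -0.89 ± 0.11 and -0.89 ± 0.13.

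In old wild type at 20°C only rpl-11.1, rpl-25.2 and rpl-24.2 did not pass, at 0.11 ± 0.05, 0.09 ± 0.05 and -0.11 ± 0.08. In wild type at 25°C only rpl-24.2 did not, at 0.09 ± 0.04. In npr-8(ok1439) at 25°C rpl-24.2 was the single member that rose, by 0.55 ± 0.08 on the log2 scale (edgeR adjusted p = 3.9e-05). It had 90.0, 90.5, 90.9, 92.8 and 87.8 CPM in old npr-8(ok1439), against 62.1, 64.6, 62.8, 57.5 and 62.9 CPM in young npr-8(ok1439), and the groups do not overlap. In wild type at 25°C the same gene had 74.9, 72.4, 67.6, 74.996 and 77.1 CPM in old animals, against 72.3, 68.1, 69.8, 71.8 and 64.1 CPM in young animals, which overlap. The difference between the genotypes in this age effect was 0.48 ± 0.08 (edgeR adjusted p = 4.9e-05). By sequence, rpl-24.2 is related to a factor that in yeast and human cells acts in assembly of the large subunit rather than in the finished ribosome.

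**Figure D2:**
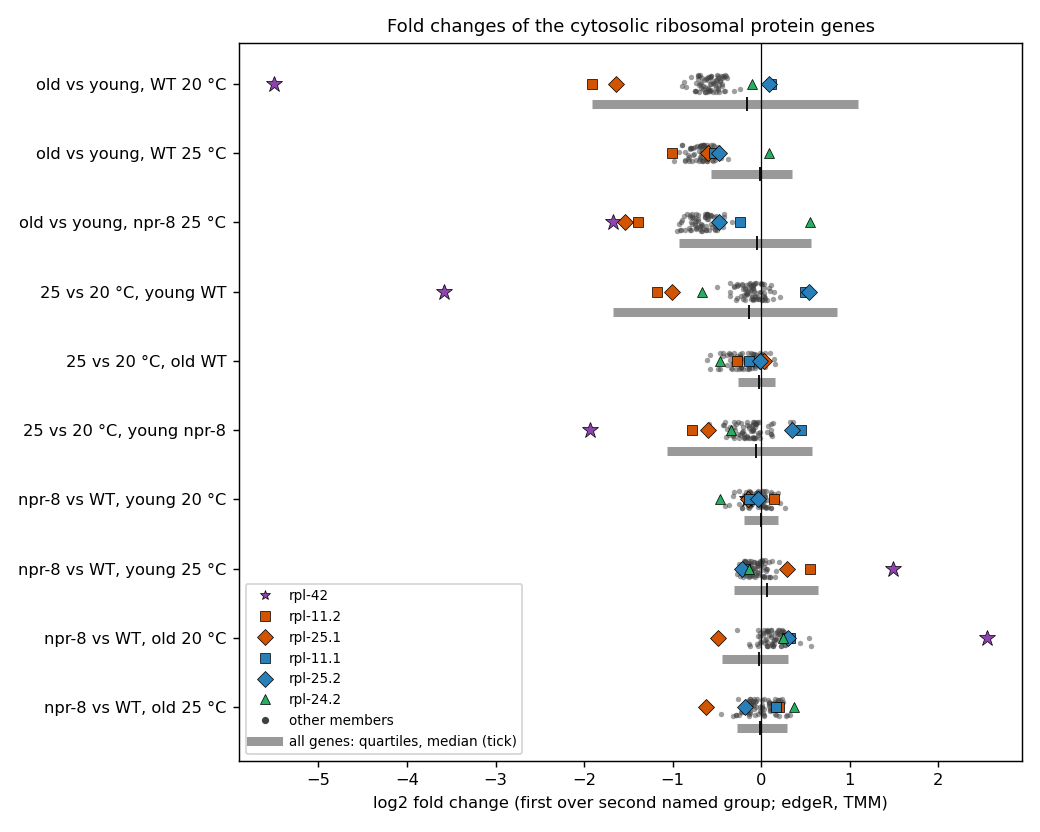
Log2 fold change (x axis; first over second named group) of each member in 10 comparisons (rows), with grey bars for the quartiles and ticks for the median of all genes tested. Most members form a tight cloud near -0.6 in the 3 age comparisons and near 0 elsewhere, and rpl-42, rpl-11.2 and rpl-25.1 each stand apart from it in some rows.

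Growth at 25°C moved the family's median less than age did, while its share of fragments was smaller at 25°C in wild type. The 80 members took 8.81 ± 0.231% of fragments in young wild type at 25°C and 10.9 ± 0.330% at 20°C. In old wild type these shares were 6.49 ± 0.376% and 7.41 ± 0.297% (SD, n = 5 each), and neither pair of ranges overlaps. In young npr-8(ok1439) the ranges overlap, at 9.30 ± 0.878% and 10.4 ± 0.366%. In young wild type, 29 of 80 members passed below their level at 20°C and 4 above it, against 47.7% and 41.4% of all 14976 genes, and the median was -0.10 for members and -0.14 for all genes. The sign of this median depends on the scaling, at 0.01 with DESeq2's size factors and -0.27 with library size alone. Members passing were 13 above and 11 below with the former, and 2 above and 66 below with the latter. Of all genes, 6552 passed above and 6790 below with the former, and 5573 and 7729 with the latter. No direction can therefore be given for the family's fold change. By the 2-fold rule rpl-42, rpl-11.2 and rpl-25.1 were lower and 0 members higher, against 34.8% of all genes lower and 21.4% higher; rpl-25.1, at -1.01, was under this size in 12 of the alternatives, at -0.997 to -0.627, and 5 of those left out a single library. In old wild type at 25°C, 44 of 78 members passed below their level at 20°C and 2 above, against 26.8 and 23.4% of all 13693 genes; the median was -0.18 for members and -0.02 for all genes, and 0 members changed 2-fold, against 4.25% of all genes lower and 1.98% higher. At an unadjusted p under 0.05, 51 members differed there, against 7720 of all 13693 genes, and DESeq2 called 0 members at the 2-fold size as well. In young npr-8(ok1439), 12 of 79 members passed below and 5 above, against 40.5 and 34.7% of all 14878 genes, with medians of -0.13 and -0.06. Without the uneven library, 42 members passed below and 8 above. By the 2-fold rule only rpl-42 was lower, against 26.2% of all genes lower and 12.8% higher.

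Single members moved further. The ubiquitin-like fusion gene ubl-1 had 205, 257, 231, 203 and 205 CPM in old wild type at 25°C, against 309, 314, 366, 342 and 300 CPM in old wild type at 20°C. Every library at 25°C lay below every library at 20°C, and the log2 fold change was -0.58 ± 0.07 (edgeR adjusted p = 2.7e-05). In young wild type it was -0.35 ± 0.06, and in young npr-8(ok1439) -0.59 ± 0.11, and both passed. Of the other large changes, rpl-29, a small protein of the large subunit, was at -0.62 ± 0.13 in old and -0.49 ± 0.10 in young wild type, and rpl-24.2 at -0.46 ± 0.05 and -0.67 ± 0.07. In old wild type the members rpl-22, rps-24 and rpl-27 followed at -0.58 ± 0.18, -0.48 ± 0.07 and -0.47 ± 0.12. Above their level at 20°C in young wild type lay rpl-25.2 and rpl-11.1, at 0.54 ± 0.05 and 0.50 ± 0.07, which are members of the pairs of copies described further on. Likewise rpl-39 passed above its level at 20°C in young animals, at 0.21 ± 0.06 in wild type and 0.36 ± 0.14 in npr-8(ok1439), and rpl-37 in old wild type and in young npr-8(ok1439), at 0.15 ± 0.06 and 0.40 ± 0.13. The comparisons of age and of temperature in young wild type share the libraries at 20°C.

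Loss of npr-8 moved the family little in young animals. At 20°C, 6 of 80 members passed below wild type and 3 above, against 16.1 and 17.2% of all 14872 genes, and the median was -0.04 for members and -0.003 for all genes. The lowest were rpl-24.2, rpl-37 and rps-20 at -0.46 ± 0.08, -0.41 ± 0.12 and -0.36 ± 0.09, and the highest rla-2 at 0.26 ± 0.09. No member changed 2-fold, against 1.47% of all genes lower and 4.4% higher, and DESeq2 gave 0 members at this size too. At an unadjusted p under 0.05, 18 members differed, against 6446 of all 14872 genes. At 25°C, 0 of 79 members passed below wild type and 2 above, against 24.6 and 35.7% of all 13959 genes, with 9 below and 3 above without the uneven library. The 2 that passed were rpl-42 and rpl-11.2. By the 2-fold rule this left rpl-42 (1 of 79, against 14.4% of all genes higher and 2.84% lower). The medians were -0.08 for members and 0.06 for all genes, and that of the members was 0.08 with library size alone and -0.17 with DESeq2.

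In the edgeR fit of old animals at 20°C many members were slightly higher in npr-8(ok1439) than in wild type, which depends on the scaling. Of the 71 members that could be matched, 38 passed above wild type and 3 below, against 34.9 and 37.6% of all 12969 genes, and the median was 0.13 for members and -0.03 for all genes. Among them rla-0, the core protein of the stalk, had 2518, 2551, 2312, 2432 and 2619 CPM in npr-8(ok1439), against 1800, 1851, 1932, 1909 and 1783 CPM in wild type. The groups do not overlap, and the log2 fold change was 0.54 ± 0.04 (edgeR adjusted p = 5.4e-11). Of similar size were rps-16, a small-subunit protein near the decoding site, at 0.56 ± 0.09, and rpl-14 at 0.44 ± 0.04. Below wild type lay rpl-25.1 at -0.49 ± 0.06, rps-24 at -0.13 ± 0.04 and rpl-19 at -0.13 ± 0.03. By the 2-fold rule rpl-42 was the single member, higher, against 11% of all genes higher and 9.47% lower. For the 9 members that could not be matched, the authors' pooled FPKM differed by a median log2 ratio of 0.12, with ubl-1 lowest at -0.19 and rpl-26 highest at 0.29; these are ratios of the authors' group values with no replicate error. The CPM values stand on 1 scale over all 40 libraries, on which the differences of old npr-8(ok1439) at 20°C come out smaller than in the fit of the 2 groups.

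In old animals at 25°C the members were near their level in wild type. There 13 of 78 members passed below wild type and 5 above, against 29.7 and 29.2% of all 14380 genes, and the medians were -0.02 for members and -0.01 for all genes. Without the uneven old library these counts were 33 below and 10 above, and without 1 of the wild-type libraries the count above was 17. At an unadjusted p under 0.05, 24 members differed, against 9106 of all 14380 genes. No member changed 2-fold, against 3.5% of all genes lower and 10.1% higher. DESeq2, which also tested rpl-42, called 1 member at this size. The lowest were rpl-25.1 and rps-2, a small-subunit protein at the mRNA entry, at -0.63 ± 0.13 and -0.45 ± 0.08, followed by rpl-5 at -0.31 ± 0.06, and the highest rpl-24.2 at 0.37 ± 0.04. Without the uneven old library these were -0.80, -0.54, -0.39 and 0.38. Whether the effect of npr-8 loss differed between the temperatures in old animals was not tested, since the groups stand in tables of a different kind.

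Copies of the same protein moved apart from each other. In this genome 2 proteins of the large subunit are each coded by a copy on the X chromosome and a copy on an autosome. The protein that binds 5S ribosomal RNA has rpl-11.2 on X and rpl-11.1 on V (chrV:3585366-3586055, ce10), and a protein beside the exit tunnel has rpl-25.1 on X (chrX:4715155-4715723, ce10) and rpl-25.2 on I. These were also the only 2 members of the family on X; the others lie on chromosomes I, II, III, IV and V, 23, 10, 20, 17 and 8 in number. For rpl-11.2 and rpl-25.2 the tables give intervals over 100000 bases that hold other genes as well, and their positions are left out. Each ratio was formed within a library as the log2 of the fragments of both copies (0.5 added), so that no scaling enters, and these pairs and the related genes rpl-24.2 and rpl-24.1 were tested in 10 comparisons with a two-sided exact permutation test (30 tests; the smallest p that 5 against 5 libraries can give is 0.00794, 0.0113 after adjustment).

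For the 5S-binding protein the X-linked copy nearly matched the autosomal one in young animals at 20°C and fell far behind in every other group. The log2 ratio of rpl-11.1 to rpl-11.2 was 2.47, 2.50, 2.26, 2.52 and 2.37 in old wild type at 20°C, against 0.37, 0.37, 0.41, 0.43 and 0.43 in young wild type at 20°C. The difference was 2.02 (exact permutation p = 0.00794, adjusted 0.0113), and in terms of fragments the autosomal copy supplied 84.3 ± 1.01% of the pair in old and 57.0 ± 0.517% in young wild type (SD, n = 5 each). Growth at 25°C gave a similar picture in young wild type, with ratios of 2.11, 1.98, 2.08, 1.91 and 2.29 at 25°C and a difference of 1.67 to 20°C (exact permutation p = 0.00794, adjusted 0.0113). In old wild type the temperatures did not separate, at 2.54 ± 0.064 at 25°C and 2.42 ± 0.109 at 20°C (SD, n = 5 each; exact permutation p = 0.079, adjusted 0.104).

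Young npr-8(ok1439) at 25°C stood between these levels. Its ratios of rpl-11.1 to rpl-11.2 were 2.04, 1.26, 1.11, 1.21 and 1.15, against the 1.91 to 2.29 of young wild type at 25°C, and the value of 2.04 belongs to the uneven library. The difference was -0.72 (exact permutation p = 0.0238, adjusted 0.0325) and -0.89 without that library. The X-linked rpl-11.2 itself had 503, 669, 758, 784 and 744 CPM in young npr-8(ok1439) at 25°C, against 483, 482, 443, 521 and 474 CPM in young wild type at 25°C. Its log2 fold change was 0.55 ± 0.13 (edgeR adjusted p = 0.0029), or 0.62 without the uneven library, and the effect of temperature differed between the genotypes by 0.38 ± 0.13 (edgeR adjusted p = 0.02), or 0.45 without it. At 20°C young npr-8(ok1439) was also lower in ratio than wild type, at 0.13 ± 0.130 and 0.40 ± 0.030 (SD, n = 5 each), a difference of -0.28 (exact permutation p = 0.00794, adjusted 0.0113). In old animals the genotypes did not separate, with differences of 0.03 at 20°C (exact permutation p = 0.54) and -0.03 at 25°C (exact permutation p = 0.762).

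For the exit-tunnel protein the X-linked copy was the minor one throughout and was again highest in young animals at 20°C. The log2 ratio of rpl-25.1 to rpl-25.2 was -2.69, -2.97, -2.60, -2.80 and -2.66 in old wild type at 20°C, against -1.16, -0.91, -1.09, -0.82 and -1.07 in young wild type at 20°C, a difference of -1.73 with no overlap (exact permutation p = 0.00794, adjusted 0.0113). Young wild type at 25°C had -2.60, -2.46, -2.49, -2.43 and -2.81, a difference of -1.55 to 20°C (exact permutation p = 0.00794, adjusted 0.0113). At 25°C npr-8 loss went with opposite differences at the 2 ages. There the ratio was higher than wild type in young npr-8(ok1439), by 0.49, and lower in old npr-8(ok1439), by a difference of -0.46, and at 20°C it was lower in old npr-8(ok1439), with a difference of -0.79 (exact permutation p = 0.00794, adjusted 0.0113, each). Without the uneven libraries the differences at 25°C were 0.55 in young and -0.53 in old animals. In young animals at 20°C the genotypes overlapped, with a difference of -0.10 (exact permutation p = 0.222, adjusted 0.267). In old animals at 20°C the ratios were -3.48, -3.50, -3.52, -3.56 and -3.61 in npr-8(ok1439), so the X-linked copy supplied 7.96 ± 0.264% of the pair there and 13.03 ± 1.10% in old wild type at 20°C (SD, n = 5 each). The effect of age on rpl-25.1 at 25°C differed between the genotypes by -0.92 ± 0.21 (edgeR adjusted p = 0.00078), or -1.06 and -1.10 without the uneven young and the uneven old library.

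The third pair, rpl-24.2 to rpl-24.1, behaved unlike the X-linked pairs. Both genes lie on chromosome I, and rpl-24.1 codes for the large-subunit protein found in the finished ribosome. Here age raised the ratio, by 0.44 in wild type at 20°C, 0.74 in wild type at 25°C and 1.07 in npr-8(ok1439) at 25°C, and growth at 25°C lowered it in wild type, by differences of -0.60 in young and -0.30 in old animals (exact permutation p = 0.00794, adjusted 0.0113, each). In young npr-8(ok1439) the difference between temperatures was -0.21 (exact permutation p = 0.262) with the uneven library and -0.38 without it, which passed. In old animals npr-8 loss raised the ratio by 0.27 at 20°C and 0.36 at 25°C, and in young animals at 20°C the difference was -0.35 (exact permutation p = 0.00794, adjusted 0.0113, each).

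**Figure D3:**
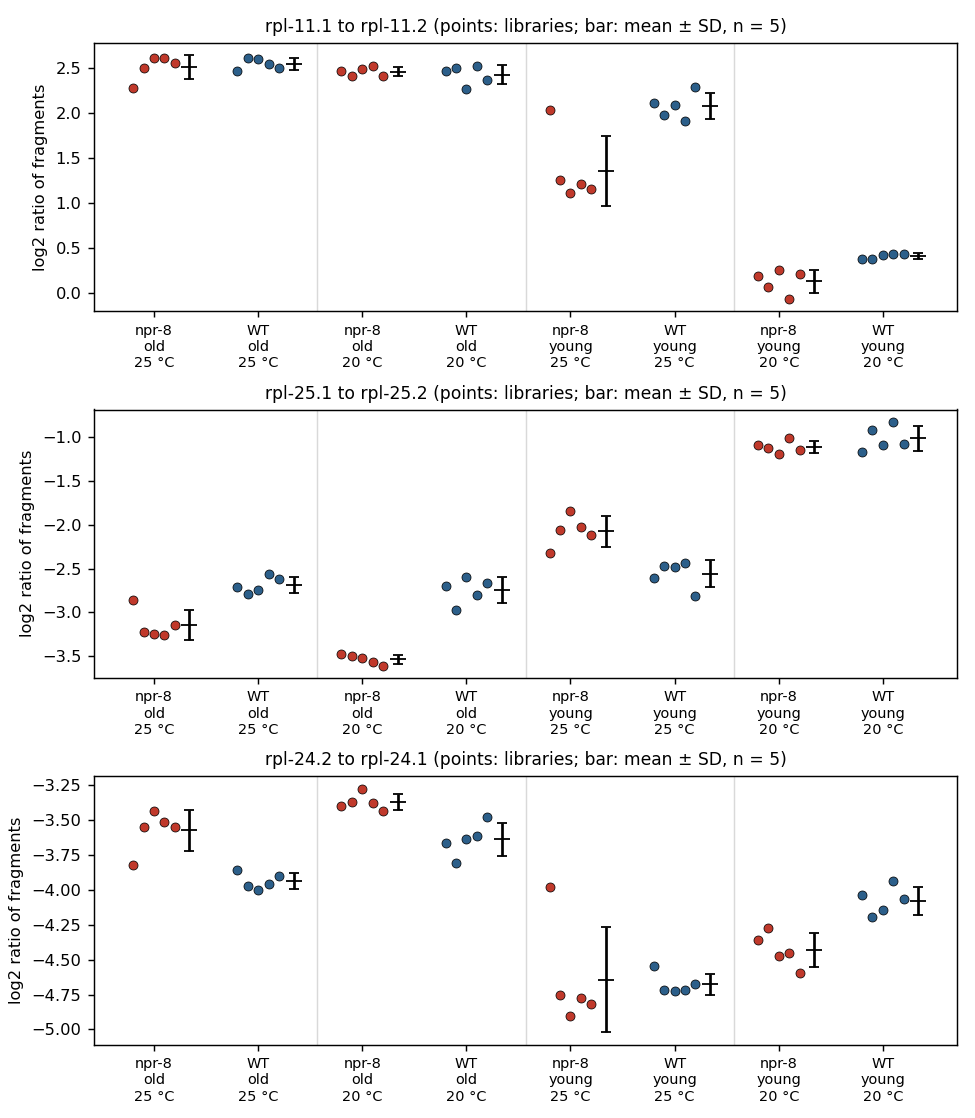
Log2 ratio of fragments (y axis) for 3 pairs of related genes in 8 groups (x axis), with points for libraries and bars for mean ± SD (n = 5). For rpl-11.1 to rpl-11.2 the young groups at 20°C lie at or below 0.43 and all other libraries at or above 1.11; for rpl-25.1 to rpl-25.2 the young groups at 20°C lie at or above -1.19 and all others at or below -1.84.

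Other genes of the X chromosome and markers of the germ line moved in several of the same comparisons, but not always together. The median log2 fold change of all X-linked genes tested was -0.86 with age in wild type at 20°C and -0.60 with growth at 25°C in young wild type, where those of the autosomes were -0.10 and -0.05; for npr-8 loss in young animals at 25°C they were 0.27 and 0.02, and in old animals at 20°C -0.45 and 0.03. The summed level of the 17 oocyte and embryo markers was 17001 to 18326 CPM in old wild type at 20°C, 17246 to 18576 in young wild type at 25°C, 5369 in the uneven library and 11870 to 12739 in the other 4 of young npr-8(ok1439) at 25°C, 1923 to 3190 in young npr-8(ok1439) at 20°C and 1005 to 1309 in young wild type at 20°C. It was 19841 to 20805 CPM in old wild type at 25°C, and 14147 to 16287 at 20°C and 13281 to 17404 at 25°C in old npr-8(ok1439). By the 2-fold rule all 17 rose with age in wild type at 20°C, and all 17 rose with growth at 25°C in young wild type. With npr-8 loss in young animals at 20°C, 12 were higher by this rule, against 4.4% of all genes, with X-linked and autosomal medians of 0.01 and -0.007. In old animals at 25°C 15 passed below wild type, against 29.7% of all genes, with medians of -0.24 and 0.02. The markers of body wall muscle went the other way with age: the sum of 8 of them lay at 370 to 647 CPM in old and 8335 to 10686 in young wild type at 20°C. In the uneven library of young npr-8(ok1439) at 25°C every marker list, not only that of oocytes and embryos, summed to less than in the other 4. Germline markers summed to 2427 CPM there and 4935 to 5242 in the others, and body wall muscle markers to 2000 and 4604 to 6582. The part of these tissues in the family's fall and in the ratios of the copies was not tested.

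The lowest member, rpl-42, varied most between the groups. At the level of fragments it had 4 to 19 per library in old npr-8(ok1439) at 25°C, 0 to 3 in old wild type at 25°C, 15 to 25 in old npr-8(ok1439) at 20°C and 1 to 5 in old wild type at 20°C. Young animals had 23 to 44 in npr-8(ok1439) at 25°C, 1 to 15 in wild type at 25°C, 131 to 148 in npr-8(ok1439) at 20°C and 115 to 203 in wild type at 20°C. Summed over 5 libraries this is 16 fragments in old and 796 in young wild type at 20°C, a level 47.9-fold higher in young wild type (95% exact interval of counting error alone, 29.3 to 84.2), and the log2 fold change with age in the edgeR fit was -5.50 ± 0.28 (edgeR adjusted p = 1.8e-10). With growth at 25°C it was -3.58 ± 0.31 in young wild type and -1.94 ± 0.13 in young npr-8(ok1439), and these effects differed between the genotypes by 1.63 ± 0.35 (edgeR adjusted p = 0.00055). Its level was higher in npr-8(ok1439) than in wild type in 3 of 4 comparisons, of which the fit could test and passed 2. In old animals at 20°C it had 0.802, 0.584, 0.677, 0.779 and 0.580 CPM in npr-8(ok1439), against 0.118, 0.182, 0.155, 0.121 and 0.0391 CPM in wild type, and the log2 fold change was 2.55 ± 0.30 (edgeR adjusted p = 1.6e-07). In young animals at 25°C the log2 fold change was 1.49 ± 0.33 (edgeR adjusted p = 0.0023). In old animals at 25°C it was below the filter on low counts, and the summed fragments of 63 in npr-8(ok1439) and 7 in wild type give a level 8.77-fold higher in npr-8(ok1439) (95% exact interval, 4.02 to 22.7). In young animals at 20°C it did not pass, at -0.16 ± 0.15 (edgeR adjusted p = 0.45).

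Markers of sperm had a like order over the groups. The sum of 15 of them was 154 to 166 CPM in old npr-8(ok1439) at 25°C, 60.2 to 65.4 in old wild type at 25°C, 253 to 261 in old npr-8(ok1439) at 20°C and 52.3 to 66.4 in old wild type at 20°C. In young animals it was 148 to 239 CPM in npr-8(ok1439) at 25°C, 103 to 131 in wild type at 25°C, 833 to 904 in npr-8(ok1439) at 20°C and 804 to 961 in wild type at 20°C. Their part in the level of rpl-42 was not tested. The tables place rpl-42, rpl-41 and rps-9 in 1 interval of chromosome II. How reads that match more than 1 gene were divided is not given in the sources used here, so values of the low gene rpl-42 are uncertain.

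**Figure D4:**
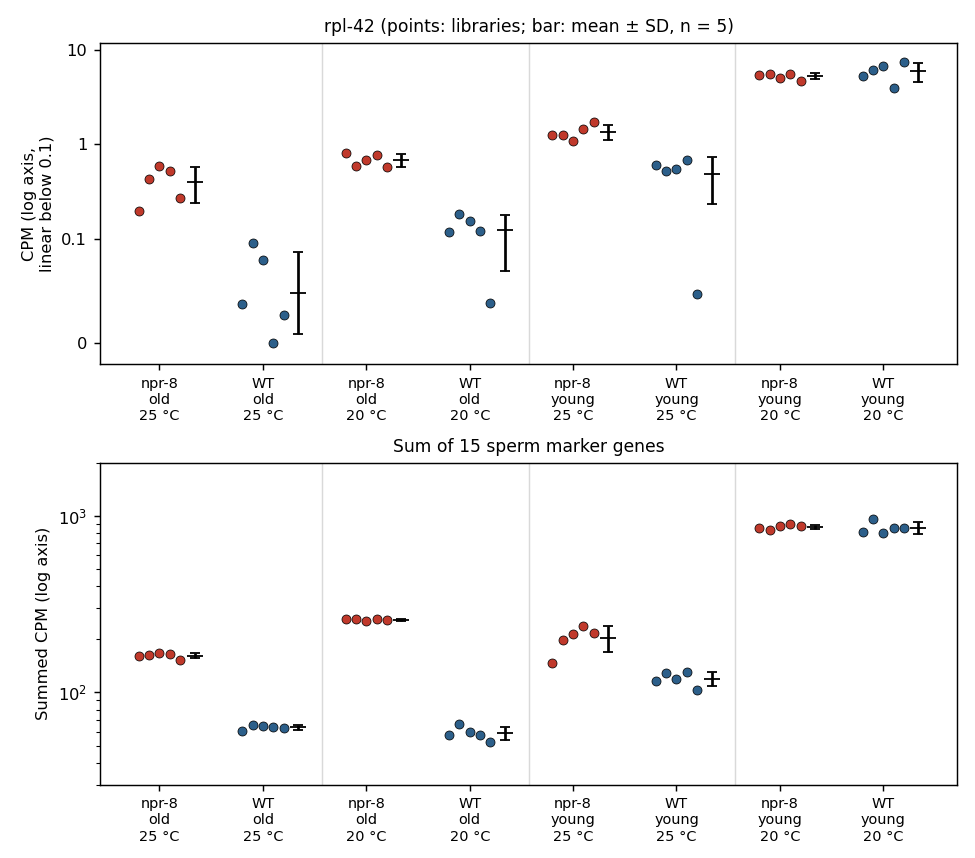
Level of rpl-42 (upper panel, CPM on an axis that is logarithmic above 0.1) and summed level of 15 sperm markers (lower panel, CPM, log axis) in 8 groups (x axis), with points for libraries and bars for mean ± SD (n = 5). Both are highest in young animals at 20°C, and in old animals the npr-8(ok1439) libraries lie above those of wild type in both panels.

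Few members responded to age, temperature and genotype in a way that depended on a second factor. For age by temperature in wild type, 5 of 79 members passed above and 6 below 0, against 41.8 and 40.5% of all 15613 genes, and without 1 library of old wild type at 25°C the count below was 19. For npr-8 loss by temperature in young animals, 5 of 79 passed above and 1 below, against 29.4 and 20.7% of all 15472 genes, or 6 and 5 without the uneven library. For npr-8 loss by age at 25°C, 1 of 79 passed above and 2 below, against 27 and 26.6% of all 15088 genes, or 4 and 7 without the uneven young library and 4 and 4 without the uneven old one. A difference of 2-fold or more was called for 2 members above 0 and 0 below for age by temperature (against 32 and 21.9% of all genes). For npr-8 loss by temperature it was called for rpl-42 alone, above 0 (15.9 and 5.51%). For npr-8 loss by age it was called for 0 members (9.05 and 11.6%). There 4 members differed at an unadjusted p under 0.05, against 8922 of all 15088 genes, and DESeq2 called 1 member at 2-fold. Without the uneven young or without the uneven old library, 1 member on each side of 0 was called. All 4 genes of the X-linked pairs were among those that passed for age by temperature: the log2 fold change with age was higher at 25°C than at 20°C for rpl-11.2 and rpl-25.1, by 0.93 ± 0.08 and 1.07 ± 0.11, and lower for their autosomal copies rpl-11.1 and rpl-25.2, with differences of -0.62 ± 0.10 and -0.54 ± 0.06.

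Other lists of protein synthesis had medians closer to 0 with age, or above it. Their counts stand against the shares of all genes given above for age, which were 48.4% below and 42.4% above in wild type at 20°C, 39.5 and 37.3% in wild type at 25°C, and 39.4 and 35.1% in npr-8(ok1439), and several of them are near or under these shares. Of the mitochondrial ribosomal proteins, which are coded in the nucleus and serve a separate ribosome, 23 of 64 tested passed below young wild type at 20°C and 13 above, and the median was -0.04; at 25°C these were 35 below and 8 above with a median of -0.15, and in npr-8(ok1439) at 25°C 26 below and 7 above with a median of -0.17. None of them changed 2-fold in any of the 10 comparisons of pairs of groups. Genes of ribosome biogenesis, which process ribosomal RNA and assemble the subunits, went up with age more often than down in npr-8(ok1439) at 25°C, where 26 of 42 passed above and 1 below with a median of 0.45. Among them lpd-7, riok-1 and nath-10 were at 1.61 ± 0.11, 1.23 ± 0.12 and 1.14 ± 0.19. In wild type 25 passed above and 13 below at 20°C, with a median of 0.22, and 16 above and 14 below at 25°C, with a median of 0.00. Of the 16 germline markers, 8 passed above and 0 below with age in npr-8(ok1439) at 25°C (median 0.49). In wild type 14 of them passed above and 2 below at 20°C (median 0.93), and 5 above and 9 below at 25°C (median -0.14). Their part was not tested. The biogenesis list also holds pes-1 and nob-1, which in C. elegans code for developmental transcription factors and are included in its counts. With growth at 25°C in young wild type they were at 8.76 ± 0.33 and -1.24 ± 0.16, the highest and the lowest value among its genes called at 2-fold. The list was set by gene symbol, and further symbols, such as imp-3 at 1.41 ± 0.05 there, may also name genes of other function. Of the translation factors, 26 of 35 passed below young wild type at 25°C and 4 above with a median of -0.28, while at 20°C 11 passed below and 15 above with a median of -0.01. In this list iff-2, a form of the factor eIF5A, was at -1.63 ± 0.08 and ife-3, a cap-binding protein, at 1.13 ± 0.06 with age at 20°C.

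With npr-8 loss in old animals, the counts of these lists stand against 34.9% of all genes above and 37.6% below wild type at 20°C, and 29.2 and 29.7% at 25°C. At 20°C 30 of 40 biogenesis genes passed above wild type and 4 below (median 0.28), and 15 of 28 translation factors passed below and 5 above (median -0.10). At 25°C 25 of 42 biogenesis genes passed above and 2 below (median 0.19), and 23 of 35 translation factors passed below and 1 above (median -0.15). Germline markers moved in the same comparisons, with 12 of 15 above and 2 below at 20°C (median 0.26) and 8 of 16 above and 3 below at 25°C (median 0.09), and their part was not tested. With age in wild type, the 19 genes of TOR signalling and its inputs had 15 members above and 2 below at 20°C (median 0.77), against 42.4 and 48.4% of all genes. They were led by rict-1, a subunit of TOR complex 2, at 1.96 ± 0.04. In that comparison 14 of 16 germline markers passed above and 2 below (median 0.93). All 17 oocyte and embryo markers passed above (median 4.04), and the part of these tissues was not tested. At 25°C 10 of the 19 TOR genes were above and 4 below with age (median 0.09), against 37.3 and 39.5% of all genes. For npr-8 loss in young animals at 25°C 0 of them passed above and 14 below (median -0.30), against 35.7% of all genes above and 24.6% below. In that comparison 15 of 17 oocyte and embryo markers (median -0.66) and 9 of 16 germline markers (median -0.48) also passed below, and their part was not tested. Of the 2 ribosomal proteins that the tables name outside the rule, rpl-7A and rack-1, both passed below the young animals in each of the 3 age comparisons, with medians of -0.42, -0.57 and -0.61.

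**Figure D5:**
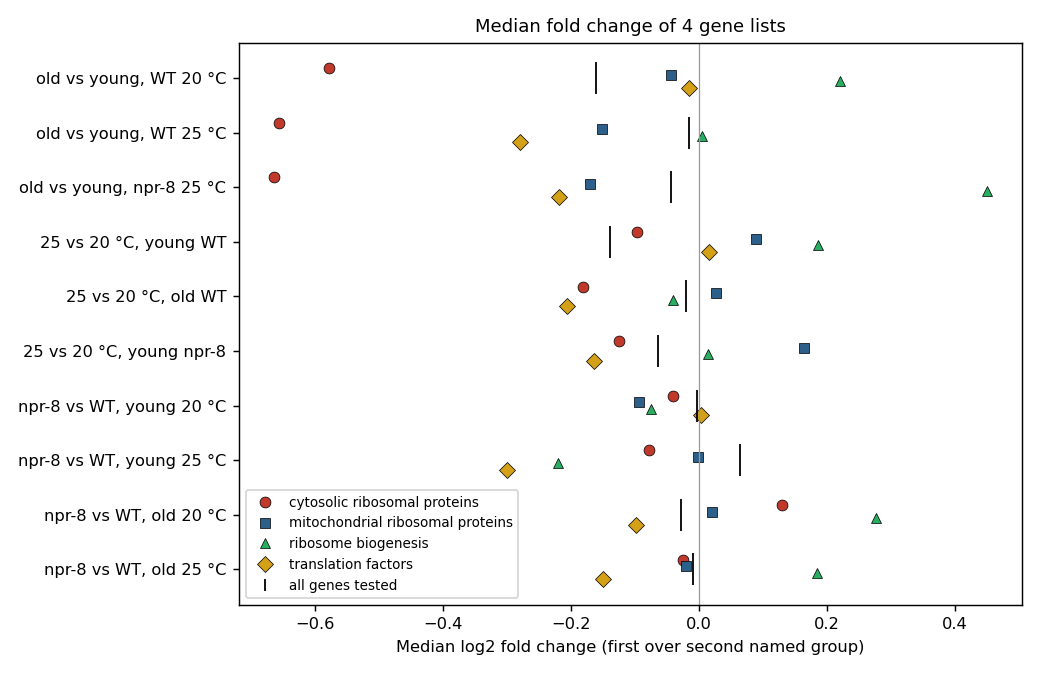
Median log2 fold change (x axis; first over second named group) of 4 gene lists and of all genes tested (ticks) in 10 comparisons (rows). In the 3 age comparisons cytosolic ribosomal proteins lie at -0.58, -0.66 and -0.66, below the other 3 lists and below all genes.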

How the data were processed

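Messenger RNA of whole animals was sequenced from 40 libraries, 5 in each of 8 groups. According to the methods, reads were aligned with HISAT2 to ce10 and quantified with Cuffquant and Cuffdiff; the submitters' processing notes name Bowtie2 2.3.4, Cufflinks 2.2.1, Cuffdiff and bcl2fastq. How reads matching several copies were divided is not given in the sources used here. The authors deposited tables for pairs of groups that hold expected counts (estimated fragments per gene and library, not scaled) and FPKM values that the authors scaled by Cuffdiff within each table. Fold changes, test statistics, p-values and q-values of the authors' own comparisons stand in the same deposited tables and were not used, nor were 12 columns of scaled fragments.

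Expected counts were rounded. For old npr-8(ok1439) at 20°C fragments were deposited by transcript and summed to genes matched by accession (10819) or by equal counts in old wild type (1596), which covered 89.6% of 13851 genes; the edgeR fit of that comparison used those genes. Genes passing edgeR's filter (minimum count 10, total 15) were scaled by TMM and tested with edgeR 4.0.16 (quasi-likelihood, R 4.3.3), using the libraries of the groups compared and a prior count of 0.125, with Benjamini-Hochberg adjustment over all genes tested. A member passed at an adjusted p under 0.05, and was called at a log2 change of 1 or more. Ratios of copies were tested with two-sided exact permutation tests (scipy 1.17.1). The fit was tested on simulated data. Libraries held 18690583 to 36883662 fragments; intervals cover counting error only. Alternatives were RLE factors, library size alone, the members' sum as library size, no filter on low counts, DESeq2 1.42.0, limma 3.58.1 on log2(FPKM + 1) and log2(FPKM + 0.1), and each library left out in turn; leaving 1 young wild-type library at 25°C out of the limma fit and rpl-42 out of the medians were added after seeing the data.

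Members and gene lists were chosen with earlier results of these data known. Named members were the copies with a number after a point, the stalk and fusion genes, the 5 highest and 5 lowest in each comparison and in FPKM, and those called. The example rps-4 was named after its values were seen, as a member that fell with age. Other genes were named from the lists, up to 4 per list.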

Additional observations from a re-analysis of the deposited data

Results flagged for a closer look

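Of 96 sets of 5 library values, 12 held 1 library far from the other 4, where chance marks about 5% of such sets. The uneven library of young npr-8(ok1439) at 25°C gave 4 of them. The SD of its members' departures was 0.537 against 0.0718 to 0.106 in the others, its log2 ratio of rpl-11.1 to rpl-11.2 was 2.04 against 1.11 to 1.26, that of rpl-24.2 to rpl-24.1 was -3.98 against -4.90 to -4.75, and rpl-25.1 had 114 CPM (113.8) against 205.5 to 235 CPM. In old npr-8(ok1439) at 25°C 1 library had an SD of 0.277 against 0.0444 to 0.088. In that group rpl-25.1 had 98.8 CPM in 1 library against 55.6 to 60.03 CPM, rpl-25.2 had 715 CPM against 526 to 559 CPM, and rpl-24.1 had 1274 CPM against 983 to 1061 CPM. In old npr-8(ok1439) at 20°C 1 library had an SD of 0.128 against 0.0458 to 0.058. In wild type rpl-11.2 had 324 CPM in 1 old library at 20°C against 265 to 279 CPM, rpl-25.2 had 619.5 CPM in 1 young library at 20°C against 666 to 684 CPM, and rpl-42 had 0.047 CPM in 1 young library at 25°C against 0.524 to 0.689 CPM.

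The effect of age in wild type differed between 25°C and 20°C for 11 members (log2 difference, edgeR interaction with its adjusted p). It was positive for rpl-42 at 2.31 (edgeR adjusted p = 0.0373), rpl-25.1 at 1.07 (1.1e-08), rpl-11.2 at 0.93 (3.9e-10), rpl-33 at 0.31 (0.0371) and rpl-24.2 at 0.22 (0.0294). It was negative for rpl-11.1 at -0.62 (edgeR adjusted p = 4.5e-06), rpl-25.2 at -0.54 (2.2e-08), rpl-23 at -0.27 (0.0495), rps-12 at -0.27 (0.0184), rpl-31 at -0.21 (0.0153) and ubl-1 at -0.21 (0.0453).

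The effect of npr-8 loss in young animals differed between 25°C and 20°C for rpl-42 at 1.63 (edgeR adjusted p = 0.00055), rpl-37 at 0.42 (0.0483), rpl-11.2 at 0.38 (0.0201), rps-20 at 0.35 (0.0488), rpl-24.2 at 0.31 (0.0233) and rpl-1 at -0.41 (0.0381). At 25°C the effect of npr-8 loss differed between old and young animals for rpl-24.2 at 0.48 (edgeR adjusted p = 4.9e-05), rpl-11.2 at -0.36 (0.0228) and rpl-25.1 at -0.92 (0.00078).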

How the results depend on the processing

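The family median fell with age under every scaling tried other than the members' own sum, which sets it near 0. With that sum as library size the medians were -0.0086, -0.0036 and -0.029 for age in wild type at 20°C, at 25°C and in npr-8(ok1439) at 25°C, 0.0074, 0.0049 and 0.025 for warm growth in young wild type, old wild type and young npr-8(ok1439), and 0.00102 for npr-8 loss in old animals at 20°C. For age in wild type at 20°C the median was -0.44 with RLE factors, -0.435 with DESeq2 and -0.393 and -0.394 with limma on FPKM plus 1 and plus 0.1. With library size alone it was -0.443 for age in wild type at 25°C, -0.492 for age in npr-8(ok1439), 0.079 and 0.073 for npr-8 loss at 25°C in young and old animals, and -0.265 for warm growth in young wild type. That last median was 0.00998 with RLE factors, 0.0298 with DESeq2, -0.0012 with either limma fit and 0.043 with 1 library left out of it. For npr-8 loss in young animals it was 0.073 at 20°C with either limma fit, and -0.217 at 25°C with 1 library left out of it.

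Members lower by 2-fold with age in wild type at 25°C numbered 0 with RLE factors, library size alone and the members' sum, and 2 without the filter; in npr-8(ok1439) the members' sum gave 1 higher and 1 lower. Members higher with npr-8 loss at 25°C numbered 0 in young animals in all 3 limma fits, and 1 in old animals without the filter and with DESeq2, which also gave 1 for npr-8 loss by age. The 10 genes with most fragments in each library were also left out, together with any members among them, so the members counted can differ between libraries. Shares were then 9.85% in young npr-8(ok1439) and 10.1% in young wild type at 20°C. At 25°C they were 6.48% for old npr-8(ok1439) and 9.27% for young wild type. The cause of these shifts was not tested.

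With single libraries left out, counts of members called lower with age at 25°C ran from 0 to 3 in wild type, those for age by temperature (higher) from 1 to 2, and those for npr-8 loss by age from 0 to 1 in either direction. The rpl-24.2 to rpl-24.1 ratio ran from -0.38 to -0.149 for warm growth in young npr-8(ok1439) and from -0.135 to 0.0961 for npr-8 loss in young animals at 25°C, with the extreme negative values, which passed, on leaving out the uneven library; rpl-25.1 to rpl-25.2 ran from -0.188 to -0.0946 for age in wild type at 25°C. Among values of single members 3626 kept direction and side of the threshold, 25 lost the 2-fold call, 9 gained it and 0 turned. No paired analysis was possible because the tables number libraries from 0 within each group and do not carry the replicate numbers of the labels. Depth limits only rpl-42, whose counts in old wild type were 0 to 5 per library.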
